A study of Mus musculus with 2 samples.

Results

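Matrix metalloproteinases (MMPs), the aggrecanase Adamts5 and tissue inhibitors of metalloproteinases (TIMPs) were followed through the cell classes of mouse periosteum, the cell layer that covers bone. The members were 10 genes chosen by name, namely Mmp2, Mmp3, Mmp12, Mmp13, Mmp14, Mmp19, Adamts5, Timp1, Timp2 and Timp3, and all 10 were found among the 31055 features of both matrices. The fractured group was periosteum of Prx1Cre;mTmG mice at day 3 after a break of the tibia, and its comparison was uninjured periosteum of mice with the same alleles, each measured as 1 droplet single-cell RNA library. In these mice the Prx1 promoter drives Cre in limb mesenchyme, and the mTmG reporter turns from membrane tdTomato to membrane EGFP in a cell, and its progeny, that has had Cre. Cells had migrated out of explants into medium that held 20% serum, with bFGF at 10 ng/mL, and were kept at 33 °C before they were loaded, so the values describe cultured periosteal cells. The labels give neither the age, the sex nor the number of the mice. Each group had 1 library and thus no replicates, so the groups could not be tested against each other, and all intervals given are for counting error alone.

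MMPs and ADAMTS enzymes are zinc-dependent proteases that are made as inactive proenzymes and cut collagens, proteoglycans and other matrix proteins once activated. TIMPs are small secreted proteins that occupy the active site of these enzymes. At the cell surface the membrane protease Mmp14 can bind Timp2 and the proenzyme of Mmp2 together, which leads to activation of Mmp2, so Timp2 is both an inhibitor and a part of an activation route. In bone, proteases of this family are known for the turnover of cartilage and bone matrix during growth and fracture repair.

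Mmp13, Mmp12 and Mmp3 lie close together on chromosome 9 and are shown because their promoters share letters. As described below, Mmp3 UMIs lay mostly in EGFP lineage cells, Mmp12 UMIs mostly in leukocytes, and Mmp13 UMIs in both. The sequences are RefSeq promoters of GRCm38.p6, + strand, from 120 bases before to 30 bases after the annotated start, at chr9:7272394-7272543, chr9:7347254-7347403 and chr9:7445702-7445851. Capitals mark TGAGTCA, the core letters bound by AP-1 (Fos and Jun proteins), read on either strand and so spelled TGACTCA in Mmp13, and TATAAA, the TATA box letters.
Mmp13: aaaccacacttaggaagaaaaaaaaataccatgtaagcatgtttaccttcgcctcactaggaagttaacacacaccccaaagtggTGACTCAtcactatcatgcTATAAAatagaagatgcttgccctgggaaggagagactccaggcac
Mmp12: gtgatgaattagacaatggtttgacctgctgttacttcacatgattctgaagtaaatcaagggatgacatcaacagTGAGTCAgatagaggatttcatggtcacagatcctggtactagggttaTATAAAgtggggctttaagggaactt
Mmp3: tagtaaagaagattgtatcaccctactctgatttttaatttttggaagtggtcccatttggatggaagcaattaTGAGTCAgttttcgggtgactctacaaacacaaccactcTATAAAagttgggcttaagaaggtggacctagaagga
TGAGTCA began 35 bases before the start in Mmp13, 44 before the downstream of 2 listed starts of Mmp12 and 46 before that of Mmp3. The letters from the start of TGAGTCA to the start of TATAAA numbered 19 in Mmp13, 48 in Mmp12 and 39 in Mmp3. TATAAA thus began 16 bases before the annotated start in Mmp13 and 7 before it in Mmp3, but 4 bases after it in Mmp12. Windows from 250 bases before to 50 after the start were searched on both strands, and the 2 motifs do not overlap. TGAGTCA was present in 5.20% and TATAAA in 13.6% of 32851 mouse promoters. The promoter set held 8 promoters of 7 members, namely these 3 genes, with 2 starts of Mmp12, and Mmp14 and the TIMPs. The upstream of the 2 Mmp12 starts had neither motif. Timp1, Timp2, Timp3 and Mmp14 also had neither. Those 4 held GGGCGG, the GC box bound by Sp1, which was present in 35.7% of all promoters. Timp1 also held TGAGTAA, a variant AP-1 spelling found in 2.68% of promoters, and Mmp13 held AACCACA, a RUNX spelling found in 5.27%. These matches are descriptions of letters, not of bound factors.

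Of the other members, Mmp2 lies on chromosome 8, Mmp14 on 14, Mmp19 and Timp3 on 10, Timp2 on 11, Adamts5 on 16 and Timp1 on X. In GRCm38 annotation Mmp12 overlaps Mmp1b, Mmp19 overlaps Gm47093 and Tmem198b, Timp1 overlaps Syn1, and Timp3 overlaps Syn3, each on the opposite strand, while Timp2 overlaps Cep295nl. The sources used here do not give how counting treated such overlaps.

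The day-3 library held 16332 barcodes with a median of 7030 UMIs, against 4573 barcodes with a median of 19366 UMIs in the uninjured library. A UMI marks 1 captured transcript. After filters 12790 day-3 cells and 4274 uninjured cells were kept, and the libraries shared 3 barcodes. Cells were classed by marker transcripts. EGFP lineage cells, with EGFP and few leukocyte transcripts, numbered 3503 at day 3 and 2208 in the uninjured library. C1q macrophages numbered 3197 at day 3 and 1205 uninjured. Cells with Acp5 and Ctsk, which are osteoclast genes, numbered 353 at day 3 and 47 uninjured. Cells high in S100a8 and S100a9, which are neutrophil genes, numbered 596 at day 3 and 9 uninjured. Leukocytes outside these gates numbered 4510 at day 3 and 716 uninjured. The summed level of 8 skeletal lineage markers not used by the gate was 2355 CPM (UMIs of the gene as counts per 1e+06 UMIs of the class) in EGFP lineage cells at day 3 and 5073 CPM in uninjured ones, against 80.0 CPM in day-3 C1q macrophages. The 6 macrophage markers summed to 7056 CPM in day-3 and 3670 CPM in uninjured C1q macrophages, and 6 osteoclast markers to 2006 CPM in day-3 and 919 CPM in uninjured Acp5 cells. In the uninjured library, however, 624 cells of cluster 14 carried lineage markers at 3739 CPM and macrophage markers at 1036 CPM together, so leukocyte classes of that library are also given without this cluster, a choice made after its values were seen. The 8 skeletal lineage markers and EGFP were each also given as a share of their own level in EGFP lineage cells. The median of these shares was 3.28% in day-3 C1q macrophages, 19.9% in uninjured ones and 3.71% in the uninjured ones without cluster 14. Among EGFP lineage cells 69.5% at day 3 and 0% in the uninjured library carried Xist without Y-linked transcripts, and 14.2% at day 3 and 83.4% in the uninjured library carried Y-linked transcripts without Xist, so the libraries also differed in the sex of their cells.

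EGFP lineage cells supplied the larger part of the UMIs of 8 members in both libraries, the exceptions being Mmp12 and, at day 3, Mmp13. They held 95.2% of Mmp3 UMIs at day 3 and 80.7% in the uninjured library. For Mmp2, the gelatinase that acts on denatured collagen and basement membrane, they held 92.9% at day 3 and 78.8% in the uninjured library. The inhibitors were also theirs, with 95.1% of Timp1, 89.8% of Timp3 and 84.0% of Timp2 at day 3, against 88.7%, 84.4% and 71.4% in the uninjured library. For Adamts5 the share was 89.5% at day 3 and 81.4% in the uninjured library. Without cluster 14 the uninjured shares were 94.8% for Mmp2, 96.7% for Timp1, 92.97% for Timp3, 87.1% for Timp2 and 94.5% for Adamts5. Each of these, and that of Mmp3, was then above its day-3 share, so the order of the libraries turned. Of all UMIs, by comparison, EGFP lineage cells held 63.7% at day 3 and 65.4% in the uninjured library, with cluster 14. Their median depths were 31718 UMIs at day 3 and 24318 uninjured. Mmp12 was the reverse, with 4.75% of its UMIs in EGFP lineage cells at day 3 and 4.22% in the uninjured library. Its UMIs lay in leukocytes outside the gates, at 71.9% at day 3 and 58.9% uninjured, and in C1q macrophages, at 17% at day 3 and 33.6% uninjured. The remaining proteases were spread over classes. Mmp13 had 45.2% of its UMIs in EGFP lineage cells at day 3, against 74.2% in the uninjured library, while C1q macrophages held 19.8% at day 3 and 7.51% uninjured, and other leukocytes 32.3% at day 3 and 14% uninjured. Mmp14 had 55.1% of its UMIs in lineage cells at day 3 and 73.2% in the uninjured library, with 9.22% at day 3 and 2.58% uninjured in Acp5 cells. Mmp19, which cuts basement membrane proteins, had 55.3% at day 3 and 66.8% uninjured in lineage cells. Neutrophil-gated cells held at most 0.524% of the UMIs of any member at day 3. These shares depend on how many cells of a class a library held and on their depth, which differed between the libraries, so levels within a class are given next.

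**Figure D1:**
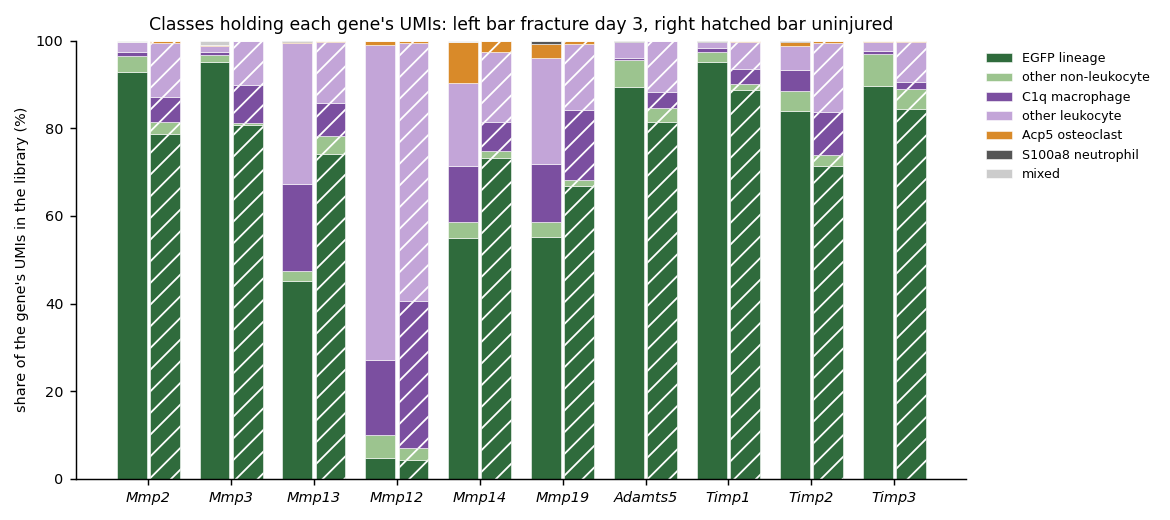
Share of each gene's UMIs held by each cell class (vertical axis, percent of the gene's UMIs in the library), with the left bar for fracture day 3 and the right hatched bar for uninjured. Mmp12 is the gene with 71.9% of its day-3 UMIs in leukocytes outside the named gates, and Mmp14 is the gene with the widest Acp5 osteoclast segment, 9.22% at day 3.

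In EGFP lineage cells 3 members stood 2-fold or more above their uninjured level at day 3, 1 stood 2-fold or more below it and 6 lay between. Among all 8180 genes that reached 10 CPM in either library, 18.4% were 2-fold or more higher and 6.12% lower by that rule. Without cluster 14 the same members were higher and lower, beside 18.8% and 6.10% of 8178 genes. The median log2 ratio of the members, 0.25, was close to the 0.21 of all these genes, and the differences that follow were in single genes.

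Mmp3, stromelysin-1, which cuts proteoglycans and basement membrane proteins and activates other proenzymes, had 123 CPM (14675 UMIs) in day-3 EGFP lineage cells, against 2.89 CPM (167 UMIs) in uninjured ones. The day-3 level was 42.8-fold higher (36.7 to 50.1). After each cell was thinned to 3000 UMIs, 11.4% of day-3 lineage cells and 0.772% of uninjured lineage cells had an Mmp3 UMI, against 0.855% of day-3 neutrophil-gated cells, the lowest share among the gated classes of that library. The median depths of those classes before thinning were 31718 and 3540 UMIs at day 3. Lineage cells called male, which are the cells shared in sex by both libraries, had 60.4 CPM at day 3 (57.0 to 64.1) and 3.11 CPM in the uninjured library (2.64 to 3.64), a ratio of 19.4, while day-3 female-called lineage cells had 144 CPM. How far sex and fracture each account for the level was not tested.

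**Figure D2:**
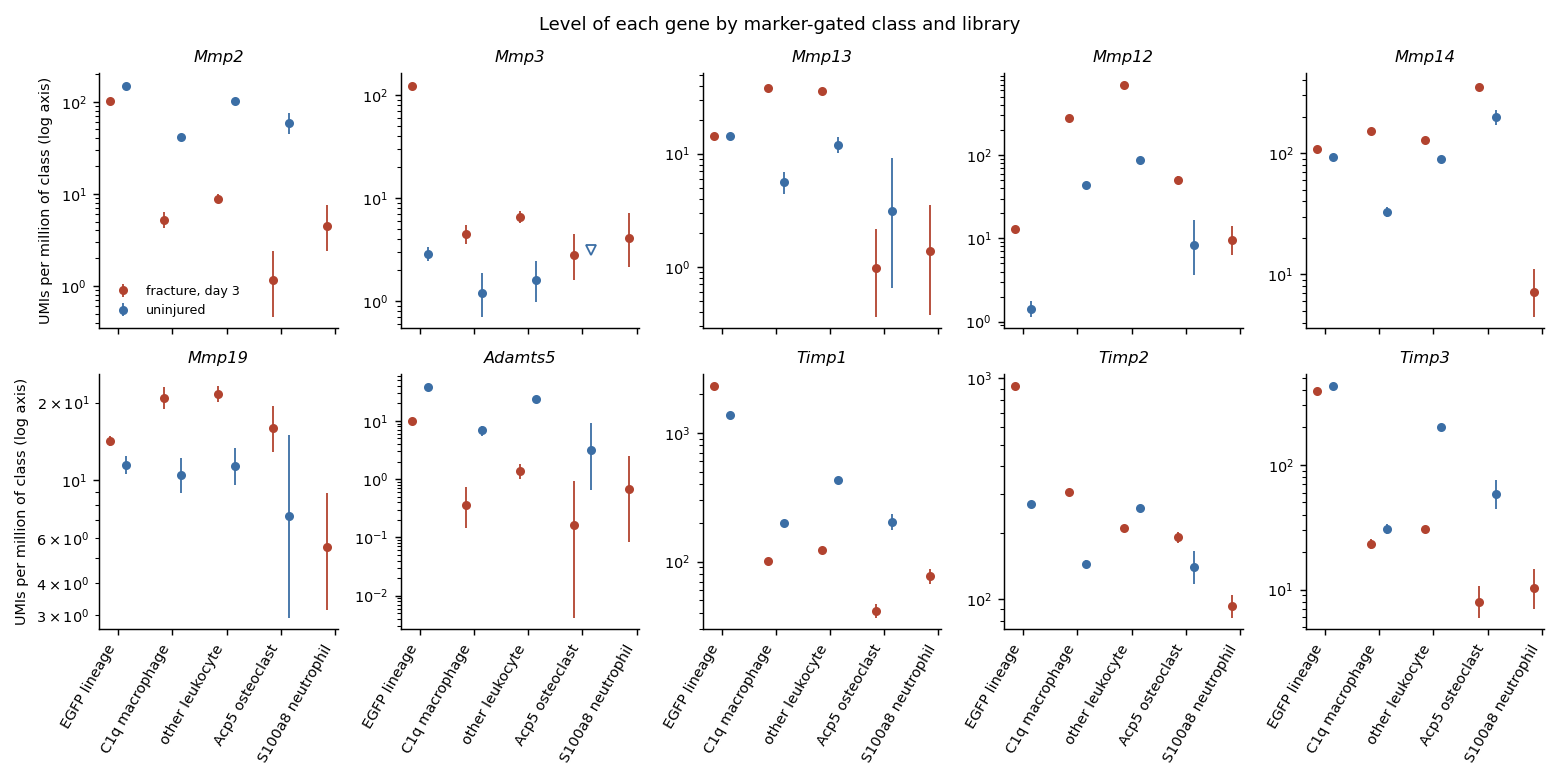
Level of each gene in CPM of the class (vertical axes, log scale, 1 panel per gene), by marker-gated class, with fracture day 3 in red and uninjured in blue, and bars for 95% Poisson counting intervals. Open triangles mark the limit that 0 UMIs allow, and uninjured neutrophils, 9 cells, are not drawn. Mmp3 stands at 123 CPM at day 3, against 2.89 CPM uninjured, in EGFP lineage cells and under 10 CPM in every other class drawn.

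Adamts5, the main aggrecanase of mouse cartilage, was the member at least 2-fold lower in lineage cells. Its level was 9.99 CPM (1188 UMIs) at day 3 and 38.3 CPM (2216 UMIs) in the uninjured library, a ratio of 0.261 (0.243 to 0.280). Thinned cells with an Adamts5 UMI made up 2.36% of day-3 and 9.85% of uninjured lineage cells. Male-called lineage cells showed it too, at 14.1 CPM at day 3 and 39.6 CPM in the uninjured library.

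Timp2 had 921 CPM at day 3, against 270.5 CPM in uninjured lineage cells, and was 3.40-fold higher (3.35 to 3.46). It was found in 82.9% of thinned lineage cells at day 3 and 50.5% of uninjured ones. Timp1 had 2307 CPM at day 3 and 1363 CPM in the uninjured library, a ratio of 1.69 (1.68 to 1.71), and its UMIs were present in 94.8% of day-3 and 92.8% of uninjured thinned lineage cells. Timp1 lies on the X chromosome, and male-called lineage cells had 2678 CPM at day 3 and 1359 CPM in the uninjured library, while day-3 female-called cells had 2247 CPM. Timp3, which stays bound to the matrix and also inhibits Adamts5, had 390 CPM at day 3 and 424 CPM in the uninjured library, a ratio of 0.919 (0.905 to 0.934).

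The other proteases differed less between the libraries in lineage cells, Mmp12 excepted. Mmp2 had 101 CPM at day 3 and 149 CPM in the uninjured library, a ratio of 0.678 (0.660 to 0.697). Mmp14 had 107 CPM at day 3 and 93.2 CPM uninjured, and Mmp19 14.2 CPM at day 3 and 11.5 CPM uninjured. Mmp13, the collagenase of hypertrophic cartilage and osteoblasts, had 14.3 CPM in both. Mmp12 had 13.1 CPM at day 3 (1559 UMIs) and 1.43 CPM in the uninjured library (83 UMIs), a 9.14-fold higher level (7.33 to 11.5). That level was 2.43% of the Mmp12 level of the C1q and other leukocytes at day 3 and 2.23% in the uninjured library, while the 11 leukocyte and macrophage genes used as a gauge, among them Adgre1, Csf1r and C1qa, lay at 1.56% to 3.57% of their own leukocyte levels at day 3 and at 1.82% to 4.11% in the uninjured library. Of the gauge genes, Tyrobp, Fcer1g, C1qa, C1qb and C1qc also served in the gates, which keep them low in lineage cells. Whether Mmp12 in this class comes from leukocyte RNA carried along was not tested. Without cluster 17, which had 118 CPM of Mmp12 among its 322 lineage cells, the ratio was 4.47. Over all its 404 cells, cluster 17 carried lineage markers at 2815 CPM and macrophage markers at 857 CPM together. The macrophage markers summed to 64.1, 55.9 and 81.5 CPM in day-3 clusters 5, 7 and 11. Their part in the Mmp12 level of cluster 17 was not tested.

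Within the lineage the inhibitor and protease levels differed by cluster. The 786 day-3 lineage cells of cluster 11, led by Nppc, Il33, Mmp3 and Crabp1, had 416 CPM of Mmp3 and 58.4 CPM of Timp3. The 1040 day-3 lineage cells of cluster 5, led by Timp3, Igfbp5 and Sfrp2, had 10.4 CPM of Mmp3 and 790 CPM of Timp3. Cluster 11 held 78.2% of all Mmp3 UMIs of the day-3 library, with 6.42% of its cells. The clusters were made from these genes, so these are descriptions and not tests. Among single cells, 7.57% of day-3 lineage cells with an Mmp3 UMI also had a Timp3 UMI, against 34.1% of those without, after thinning. Mmp19 was seen in 9.40% of the cells with an Mmp3 UMI and in 3.87% of those without.

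**Figure D3:**
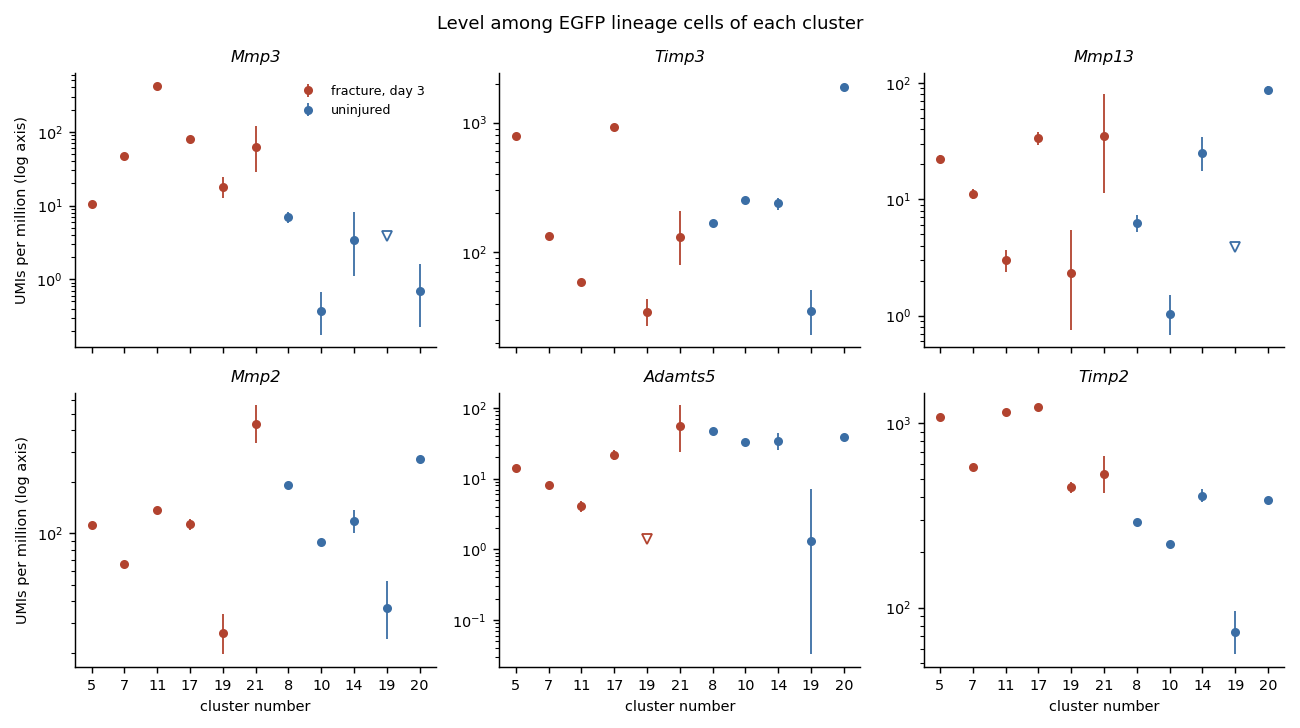
Level in CPM (vertical axes, log scale) among the EGFP lineage cells of each cluster holding at least 50 of them (horizontal axis, cluster number), day 3 in red and uninjured in blue, with Poisson counting intervals and open triangles for the limit that 0 UMIs allow. Mmp3 is highest in cluster 11, at 416 CPM, where Timp3 is 58.4 CPM, and Mmp13 and Timp3 are highest in uninjured cluster 20, at 87.6 and 1899 CPM.

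Mmp13 in lineage cells was near 14 CPM in both libraries, but in differently composed clusters. In the uninjured library cluster 20, led by the osteoblast genes Ibsp and Alpl, held 60.3% of all Mmp13 UMIs with 5.87% of the cells, and its lineage cells had 87.6 CPM of Mmp13 and 1899 CPM of Timp3. No cluster 20 of at least 50 lineage cells was present at day 3, where clusters 17 and 5 had 33.3 and 22.4 CPM of Mmp13. Cluster 17 also carried macrophage markers, at 857 CPM, and their part in its levels given here was not tested. A cluster found mostly in 1 library may be that library rather than a cell type. Adamts5 ranged from 4.08 to 21.8 CPM in the day-3 lineage clusters 5, 7, 11 and 17, and from 32.9 to 47.0 CPM in the uninjured clusters 8, 10, 14 and 20. Over all clusters with at least 50 lineage cells the Adamts5 levels of the libraries overlapped, since day-3 cluster 21 had 55.6 CPM (8 UMIs) and uninjured cluster 19 had 1.30 CPM (1 UMI), while day-3 cluster 19 had 0 UMIs, which allows up to 1.39 CPM. Timp2 lay at 448 to 1227 CPM in the 6 day-3 clusters and at 74.0 to 405 CPM in the 5 uninjured ones. The counting intervals of day-3 cluster 19 (421 to 478 CPM) and uninjured cluster 14 (373 to 439 CPM) overlapped. Clusters of 1 library are not replicates, and the share of all genes with levels set apart in this way was not counted. A small day-3 cluster 21, led by C1qtnf3, Postn and Acan, had 438 CPM of Mmp2 and 486 CPM of Mmp14 among 108 lineage cells, but its cells had a median of only 1170 UMIs.

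C1q macrophages had 4 members higher by the 2-fold rule and 1 lower at day 3, with 3 between and 2 under 10 CPM, while 31.5% of 8409 genes were higher and 6.12% lower by the same rule. The median log2 ratio of all genes in this class was 0.62 and that of the 8 members 1.03, so members are read against a general shift. Mmp12, macrophage elastase, had 283 CPM at day 3 (275 to 290) and 43.8 CPM in the uninjured library (40.5 to 47.2), a 6.46-fold higher level (5.96 to 7.01). Mmp13 had 37.8 CPM at day 3 and 5.57 CPM uninjured, a 6.78-fold higher level (5.41 to 8.60). Mmp14 had 152 CPM at day 3 and 32.7 CPM uninjured and was 4.64-fold higher (4.21 to 5.11). An Mmp14 UMI was found in 33.1% of day-3 and 7.22% of uninjured thinned C1q macrophages. Timp2 had 305 CPM at day 3 and 144 CPM uninjured, a ratio of 2.11 (2.01 to 2.22), which other scalings put below 2-fold, at 1.63 with TMM factors and 1.59 with the median of ratios. Mmp19 had 20.8 CPM at day 3 and 10.5 CPM uninjured, a ratio of 1.98 (1.65 to 2.40).

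The same class showed Mmp2 at 5.22 CPM at day 3 and 41.5 CPM in the uninjured library, Timp1 at 102 CPM at day 3 and 200 CPM uninjured, and Timp3 at 23.2 CPM at day 3 and 30.9 CPM uninjured. Without cluster 14 the uninjured levels were 11.6 CPM of Mmp2, 71.6 CPM of Timp1 and 18.2 CPM of Timp3. The ratios then became 0.451 for Mmp2, 1.42 for Timp1 and 1.27 for Timp3, against 0.126, 0.507 and 0.750 with the cluster, so the direction of Timp1 and Timp3 turned. Mmp14 was 7.83-fold, Mmp13 8.31-fold, Mmp12 5.22-fold and Timp2 2.94-fold higher without the cluster, and 5 members were at least 2-fold higher, beside 31.8% of 8255 genes, and 1 was lower, beside 3.91%. At day 3, lineage marker levels in C1q macrophages lay at 2.30% to 3.87% of their level in lineage cells. Mmp3, Adamts5, Timp1, Mmp2 and Timp3 stood at 3.66%, 3.55%, 4.40%, 5.16% and 5.94% of theirs, while Timp2 stood at 33.1%, Mmp14 at 141%, Mmp19 at 146%, Mmp13 at 264% and Mmp12 at 2155%.

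**Figure D4:**
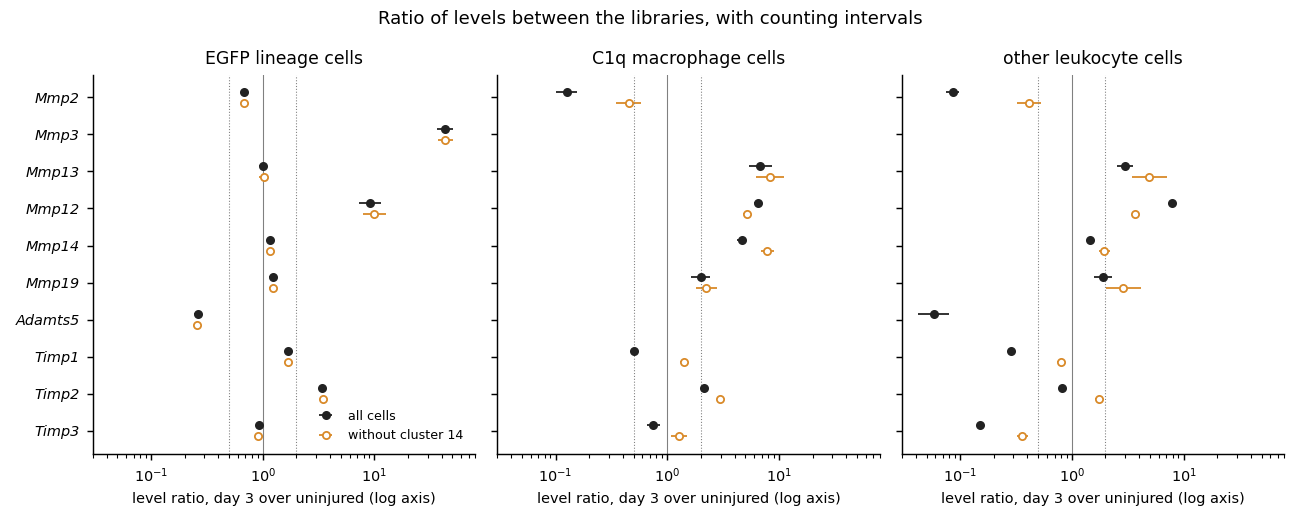
Ratio of levels, day 3 over uninjured (horizontal axes, log scale; dotted lines at 2-fold), for each gene in EGFP lineage cells, C1q macrophages and other leukocytes, with exact 95% counting intervals, in black for all cells and in orange without cluster 14. Genes under 10 CPM in a class are not drawn. Timp1 and Timp3 in C1q macrophages change sides of 1 without cluster 14, at 1.42 and 1.27, while Mmp12, Mmp13 and Mmp14 stay above 4.

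The leukocytes outside the C1q, Acp5 and S100a8 gates carried the highest Mmp12 level of the classes. These cells also carried the 6 macrophage markers, at 4213 CPM at day 3 and 1152 CPM in the uninjured library, so being outside the C1q gate does not mean that macrophage transcripts were absent. Mmp12 had 689 CPM at day 3 (680 to 698) and 87.9 CPM in the uninjured library (82.9 to 93.1), a 7.84-fold higher level (7.39 to 8.32). Without cluster 14, which left 330 of the 716 uninjured cells of this class, the uninjured level was 186 CPM and the ratio 3.70 (3.45 to 3.97). Mmp13 had 35.5 CPM at day 3 and 11.9 CPM in the uninjured library, 2.98-fold higher. In this class 2 members were higher and 4 lower by the 2-fold rule, beside 27.7% of 8669 genes that were higher and 8.16% that were lower. Those lower were Mmp2, Timp1, Timp3 and Adamts5. Without cluster 14 Mmp2, at a ratio of 0.411, and Timp3, at 0.360, were at least 2-fold lower, Timp1 was at 0.796, Adamts5 was under 10 CPM, and 3 members were higher, namely Mmp12, Mmp13 and Mmp19, beside 28.9% of 8341 genes that were higher and 3.40% that were lower. The lineage markers in this class stood at a median of 5.40% of their lineage level at day 3 and 51.0% in the uninjured library, and at 7.35% there without cluster 14.

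Mmp12 was concentrated in 1 cluster of the day-3 leukocytes. Cluster 13, led by Mmp12, Rgs1, Il7r and Cd274, held 49.1% of the library's Mmp12 UMIs with 4.92% of its cells, and its C1q and other leukocytes had 5284 CPM. The macrophage markers summed to 6475 CPM in this cluster, beside 7056 CPM in day-3 C1q macrophages. The same cells had 178 CPM of Mmp13, the highest among leukocyte clusters, and 369 CPM of Timp2. Cluster 1, led by Lgmn and Mmp12, had 1488 CPM of Mmp12 and 87.5 CPM of Mmp13, and cluster 4, led by Slfn5, Fcgr2b and Trf, had 510 CPM of Mmp12 and 90.4 CPM of Mmp13. Cluster 18, led by the granulocyte precursor genes Ctsg, Mpo and Elane, had 10.3 CPM of Mmp12 and 2.57 CPM of Mmp13. In single cells outside the gates, 14.2% of day-3 cells with an Mmp12 UMI also had an Mmp13 UMI, against 3.45% of those without. Over the 26 cluster and library sums the gene most like Mmp12 was Il7r, with r of 0.945 on log2 CPM, then Plin2 and Ctsd, and that most like Mmp13 was S1pr1, with r of 0.864, then Itgb5 and Gab1. Mmp12 and Mmp13 correlated with each other at r of 0.644. These sums share libraries and depth, and the coefficients are descriptions only.

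**Figure D5:**
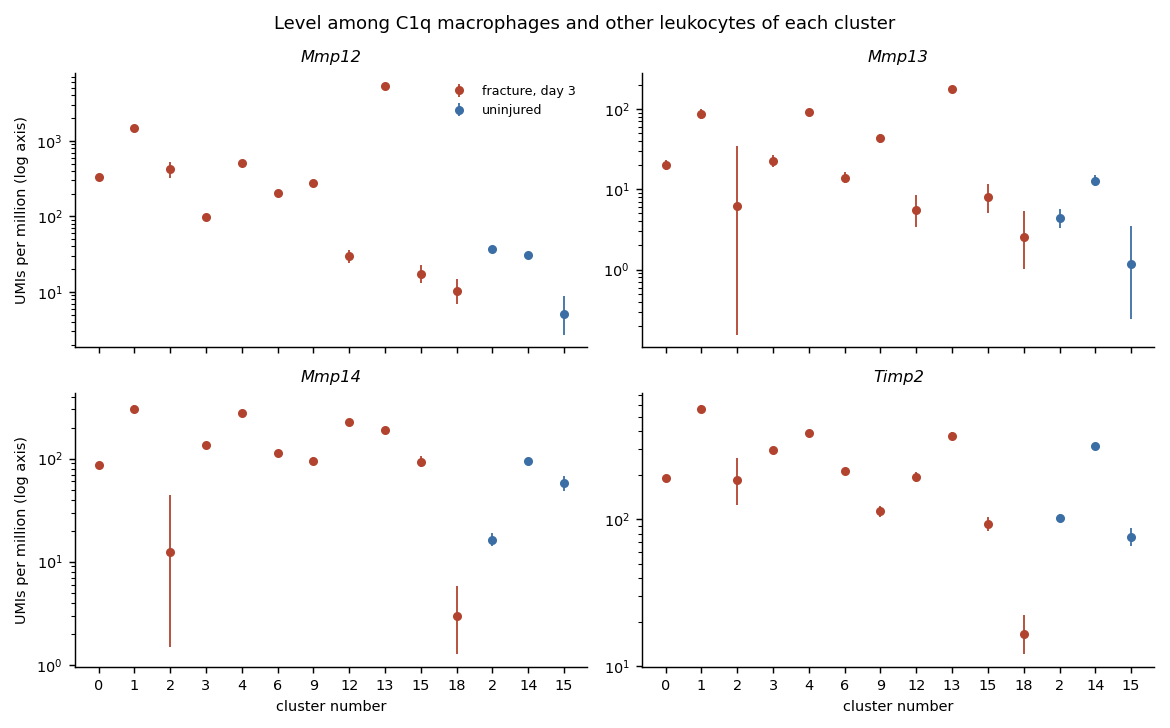
Level in CPM (vertical axes, log scale) among C1q macrophages and other leukocytes of each cluster holding at least 50 of them (horizontal axis, cluster number), day 3 in red and uninjured in blue, with Poisson counting intervals. Mmp12 is highest in day-3 cluster 13, at 5284 CPM, where Mmp13 is 178 CPM.

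Mmp14, which cuts collagen at the cell surface, was highest in the Acp5 cells among the gated classes, with 350 CPM at day 3 (336 to 366) and 198 CPM in the uninjured library (171 to 229). Of thinned Acp5 cells 58.3% at day 3 and 52.2% in the uninjured library had an Mmp14 UMI, against 1.14% of day-3 neutrophil-gated cells. At day 3 the next class was C1q macrophages, at 152 CPM (146 to 157). In Acp5 cells Timp2 had 191 CPM at day 3 and 140 CPM uninjured, and Mmp12 50.5 CPM at day 3 and 8.35 CPM uninjured. Since 47 uninjured cells were in the gate, no ratio is given. With all gate thresholds divided by 2 there were 472 day-3 and 86 uninjured cells, and the Mmp14 ratio was 1.82 (1.63 to 2.05). In that wider gate 2 members, Mmp12 and Mmp19, were at least 2-fold higher, beside 18.9% of 7921 genes, and 4, namely Mmp2, Timp1, Timp3 and Adamts5, were lower, beside 5.63%. Some of these calls rest on few UMIs. The Mmp19 ratio was 2.58 (1.39 to 5.31), from 11 uninjured UMIs. For Mmp12 it was 6.38 (3.76 to 11.8), from 14 uninjured UMIs, and Adamts5 had 3 UMIs at day 3. In the unchanged Acp5 gate lineage markers stood at a median of 1.95% of their lineage level at day 3 and 23.1% in the uninjured library, and at 3.36% there without cluster 14, which left 37 uninjured cells. Without that cluster the uninjured Acp5 levels were 14.4 CPM of Mmp2, 86.4 CPM of Timp1 and 25.9 CPM of Timp3, against 58.4, 204 and 58.4 CPM with it, while Mmp14 was 209 CPM. The part of these transcripts in the lower members was not tested. Beside the members, Mmp9, the gelatinase known from osteoclasts, had 3668 CPM at day 3 and 2615 CPM in the uninjured library in these cells, against 13 CPM at day 3 and 7.57 CPM uninjured in EGFP lineage cells.

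Neutrophil-gated cells held little of any member at day 3. Their levels were 7.22 CPM of Mmp14, 9.62 CPM of Mmp12, 5.50 CPM of Mmp19 and 4.12 CPM of Mmp3. Timp1 had 77.0 CPM and Timp2 93.1 CPM there, and lineage markers stood at a median of 3.46% of the lineage level. Timp1 stood at 3.34% and Timp2 at 10.1%. Mmp8, the neutrophil collagenase, had 375 CPM in the same cells, and 225 CPM in day-3 C1q macrophages. In the uninjured library 9 neutrophil-gated cells gave 17 UMIs of Timp1, 5 of Mmp2, 4 of Timp2, 3 of Timp3 and 1 of Mmp19. They gave none of Mmp3, Mmp12, Mmp13, Mmp14 or Adamts5.

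Cells under both the EGFP gate and the leukocyte threshold numbered 614 at day 3 and 89 in the uninjured library, with median depths of 2347 UMIs at day 3 and 14589 uninjured. Lineage markers in them stood at a median of 97.3% of the EGFP lineage level at day 3 and 108% in the uninjured library, with the 8 markers other than EGFP, which the gate keeps low, at 56.3% to 173% at day 3 and at 68.3% to 145% in the uninjured library. The 6 macrophage markers summed to 895 CPM at day 3 and 305 CPM uninjured in these cells, against 108 CPM at day 3 and 89.2 CPM uninjured in EGFP lineage cells, and their part in the Mmp12 level given next was not tested. In these cells 5 members were at least 2-fold higher at day 3, beside 31.5% of 8987 genes, and 1 was lower, beside 6.69%. Mmp3 had 57.5 CPM at day 3 (263 UMIs) and 0.718 CPM in the uninjured library (1 UMI), a ratio of 80.0 with a counting interval of 14.2 to 3173. Mmp12 had 382 CPM at day 3 and 40.9 CPM uninjured, and Timp2 1304 CPM at day 3 and 393 CPM uninjured. Mmp14 and Mmp19 were just past 2-fold, at 2.02 and 2.01. Adamts5 had 17.7 CPM at day 3 and 62.5 CPM uninjured, a ratio of 0.283 (0.207 to 0.388).

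Summed over the 7 proteases, day-3 EGFP lineage cells had 384 CPM and uninjured ones 311 CPM. C1q macrophages had 503 CPM at day 3 and 142 CPM uninjured, and other leukocytes 891 CPM at day 3 and 328 CPM uninjured, where Mmp12 makes up the larger part at day 3. Summed over the 3 inhibitors, EGFP lineage cells had 3618 CPM at day 3 and 2058 CPM uninjured. The inhibitors summed to 429 CPM at day 3 and 375 CPM uninjured in C1q macrophages, and to 363 CPM at day 3 and 887 CPM uninjured in other leukocytes, where the uninjured sums include cluster 14.

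The genes most like the members other than Mmp12 and Mmp13 were taken from the same 26 cluster and library sums, which cover 10992 genes. The gene most like Mmp2 was Col1a2, a chain of type I collagen, with r of 0.989, followed by Sparc and Serpinh1. Mmp3 was most like Nppc, with r of 0.906, then Gnas and Bcl6b. Timp3 was most like Sp7, the osteoblast transcription factor, with r of 0.967, then Cdc42ep1 and Efna5. For Adamts5 it was Runx1t1, at 0.971, with Pappa and Slc1a4 after it, and for Timp1 Parva, at 0.982, with Mxra7 and Dpysl3. Timp2 was most like Ltbp3, at 0.903. Mmp14 was most like Crtap, at 0.887, then Ext1 and Rgl1, and Mmp19 most like Gaa, at 0.901, then Slc35f5 and Ilvbl. Among the members themselves Mmp2 and Adamts5 had the highest coefficient, 0.907, and Mmp12 and Timp1 the lowest, -0.534.

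Other genes of the protease system in lineage cells were counted in lists chosen with earlier results known, and stand beside the 18.4% of all genes that were 2-fold or more higher and the 6.12% that were lower in this class. Of 4 other MMPs at 10 CPM or more none were 2-fold apart, with ratios from 0.553 for Mmp23 to 1.71 for Mmp9. Of 4 other ADAMTS genes Adamts14, a procollagen-processing enzyme, was 12.1-fold higher, at 21.9 CPM at day 3 and 1.82 CPM in the uninjured library. Of 7 ADAMs 4 were higher and 1 lower, among them Adam19 at 3.56-fold and Adam12 at 0.373-fold. Of 12 genes of activation and clearance 6 were higher and none lower, led by Itgb3 at 24.0-fold and Plau, the urokinase that activates plasminogen, at 19.9-fold, with 34.7 CPM at day 3 and 1.75 CPM in the uninjured library. Of 4 other inhibitors 1 was higher and 1 lower. Serpinb2, an inhibitor of Plau, had 389 CPM at day 3 and 8.97 CPM uninjured, a ratio of 43.3, and Serpinh1, a collagen chaperone of the serpin family, had 364 CPM at day 3 and 869 CPM uninjured, a ratio of 0.419. Among substrates 3 of 10 were higher and 2 lower, with Spp1 at 9.69-fold and Col1a1 at 0.171-fold. Among 15 transcription factors known to act on MMP promoters 5 were higher, led by Cebpb at 21.7-fold and Jund at 5.92-fold, and Spi1 was lower at 0.401-fold. Spi1 had 6.37 CPM at day 3 and 15.9 CPM uninjured in lineage cells, against 360 and 487 CPM in C1q macrophages. Whether Spi1 in lineage cells comes from leukocyte RNA carried along was not tested. In C1q macrophages, where 31.5% of all genes were higher and 6.12% lower, 2 of 3 other MMPs were higher, Mmp8 at 27.0-fold, with 225 CPM at day 3 and 8.35 CPM uninjured, and Mmp9 at 5.20-fold, with 102 CPM at day 3 and 19.6 CPM uninjured, while Mmp23 was lower at 0.171-fold. Of 10 genes of activation and clearance 5 were higher and none lower in that class, with Plau at 10.6-fold and Ctsk at 4.43-fold, and of 14 transcription factors 8 were higher, and none lower, with Cebpb at 25.5-fold and Jund at 4.44-fold. Of 5 ADAMs 2 were higher and none lower, and the 1 other ADAMTS gene at 10 CPM, Adamts10, had a ratio of 1.03. Of 4 other inhibitors 1 was higher and 3 were lower, with Serpinb2 at 20.8-fold and Serpinh1 at 0.0930-fold. Of 7 substrates none were higher and 4 were lower, with Col1a1 at 0.0317-fold and Col3a1 at 0.0714-fold, both of which are also among the lineage markers that cluster 14 carried in the uninjured library. In C1q macrophages Serpinh1 had 9.38 CPM at day 3 and 101 CPM uninjured, Serpinb2 19.3 and 0.928 CPM, and Mmp23 2.33 and 13.7 CPM. Mmp23 had 52.7 CPM at day 3 and 95.3 CPM uninjured in EGFP lineage cells. All C1q ratios of these lists include cluster 14, and the part of lineage transcripts in them was not tested.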

How the data were processed

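Transcripts were measured by droplet single-cell RNA sequencing (10x 3' kit v.2, per the labels' protocols) in 1 library per condition. The authors deposited raw UMI counts without normalization, as integer matrices per the file headers. The submitters' processing notes list Cell Ranger, Seurat 4.0.1 and mm10, and 3.1.0 is the software version in the matrix header. The sources used here do not give how barcodes were called cells. The labels' protocols describe growth to 80% confluence and loading of 20000 cells, while the design text says that cells were not expanded, and the labels give the molecule as DNA.

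Barcodes under 500 genes or 1000 UMIs (1412 at day 3, 69 uninjured) or over 10% mitochondrial UMIs (457 at day 3, 73 uninjured) were removed. Scrublet's automatic threshold marked 0 cells in each library, so the highest scores were removed at 0.8% per 1000 barcodes (1673 at day 3, 157 uninjured). Gates were set per 10000 UMIs of a cell. Lineage cells had EGFP at 5 or more, from at least 2 UMIs, with Ptprc, Tyrobp and Fcer1g summing to under 10. C1q macrophages had C1qa, C1qb and C1qc at 20 or more, osteoclasts Acp5 and Ctsk at 10 or more each, and neutrophils S100a8 and S100a9 at 200 or more. Other conflicts were set aside as mixed, 17 cells at day 3. UMIs were summed per class and given as CPM with exact Poisson 95% intervals, shares with Clopper-Pearson intervals, and ratios of day 3 over uninjured, for classes of at least 50 cells and genes at 10 CPM or more, with exact conditional binomial intervals. A count of 0 was given the limit of 3 counts. Cells were clustered on 2000 variable genes, 30 principal components and 15 neighbours with Leiden at resolution 1. Ratios and thinning were first checked on simulated data. The named genes were the members, the 2 highest and 2 lowest ratios per list and class, of which examples are given, and the 3 genes most like each member, not all of which are reported here. Members, lists, gates and the rule were chosen with earlier results of these data known. Alternatives were no doublet removal, other gates, cluster-based classes, a 20% mitochondrial filter, TMM (edgeR 4.0.16) and median-of-ratios scaling, equal weight per cell, thinning, male cells, no cycling cells, other minimum levels and a 1.5-fold rule, and, chosen after seeing the data, leaving out cluster 14 or cluster 17. GENCODE M21 held 30934 of 31055 feature identifiers. Clustering used scanpy 1.11.5 with leidenalg 0.10.2, intervals scipy 1.17.1, and figures matplotlib 3.10.9, under Python 3.11.15 with pandas 2.3.3 and numpy 2.4.6, beside R 4.3.3.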

Additional observations from a re-analysis of the deposited data

Results flagged for a closer look

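The direction of the difference between libraries was opposite in 2 classes for 3 comparisons, and the difference between classes was not tested, with 1 library per group. Timp1 had a ratio of 1.69 in EGFP lineage cells and 0.507 in C1q macrophages, a difference of 1.74 on the log2 scale. The Timp1 ratio in other leukocytes was 0.286, a log2 difference of 2.57 from the lineage cells. Timp2 had a ratio of 3.40 in lineage cells and 0.813 in other leukocytes, a log2 difference of 2.07. Without cluster 14 Timp1 in C1q macrophages had a ratio of 1.42 and Timp2 in other leukocytes 1.75, both on the same side of 1 as in lineage cells, while Timp1 in other leukocytes had 0.796. Lineage markers in uninjured other leukocytes stood at a median of 51.0% of their lineage level with that cluster and 7.35% without it, and their part in these differences was not tested.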

How the results depend on the processing

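In lineage cells Mmp3, Timp2 and Adamts5 stayed at least 2-fold apart in the same direction under all 14 alternatives, with ratios of 19.4 to 51.1, 3.17 to 3.84 and 0.205 to 0.357. Mmp12 in lineage cells ranged from 4.47 to 21.7 and was under the minimum level with gate thresholds doubled, in male cells and without cluster 17. Timp1 passed 2-fold there only without cycling cells, at 2.17. In C1q macrophages Mmp12, Mmp13 and Mmp14 stayed at least 2-fold higher under all 14 alternatives, with ratios of 4.87 to 10.2, 4.30 to 17.6 and 2.37 to 7.83, while Timp2 did so under 8 of them. The count of C1q members at least 2-fold lower was 2 with no doublet removal, with TMM scaling, with median-of-ratios scaling, thinned to 3000 UMIs, without cycling cells and at 1.5-fold, 3 in male cells, and 4 with gate thresholds halved and with classes from clusters, against 1. In other leukocytes 4 members were higher with gate thresholds halved, against 2, and the count lower was 2 with thresholds halved and 2 without cluster 14, against 4. With a minimum of 1 CPM, 9.32% of genes in lineage cells, 10.9% in C1q macrophages and 14.3% in other leukocytes were at least 2-fold lower. The cause was not tested in these cases. Classes from clusters left no other leukocytes, so that class had no value there. No paired analysis was possible because each group has 1 library. Depth limits genes under 10 CPM and the uninjured Acp5 and neutrophil-gated classes, with 47 and 9 cells.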
